A study of Mus musculus with 6 samples.

Results

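The receptors and enzymes of the endocannabinoid system were followed across whole pancreas of mice with and without Rkip-1. The genes were the receptors Cnr1 and Cnr2, the synthesis enzymes Napepld, Dagla and Daglb, and the breakdown enzymes Faah and Mgll. All probe sets whose platform annotation names exactly 1 of these 7 genes were taken, which gave 12 of the 45037 probe sets tested. Cnr1 and Mgll account for 6 of the 12, so the probe sets are not independent of each other. The group was put together after 1 Cnr1 probe set had been seen to be higher in the knockout, and the differences between genotypes at Cnr1 are therefore given as a description.

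The study compared Rkip-1 KO mice with WT mice of one colony on a C57BL/6 background, all at an age of 8 weeks, with 3 biological replicates a genotype and 1 Affymetrix array each. The labels do not state how the allele was disrupted, the sex of the mice or a batch. Values are log2 intensities made with RMA, which has no detection call, so a level is read here against its own array: the array medians lay between 2.97 and 3.02 and the upper quartiles between 4.53 and 4.56. Pebp1, the gene of Rkip-1, measured 5.71 to 6.50 in KO and 9.81 to 10.01 in WT at its brightest probe set. At its other probe set, 1415950_a_at, it measured 2.76 to 3.56 in KO and 8.45 to 8.58 in WT. The 6 measured acinar markers averaged 12.48 to 12.73 over the arrays. Over all tested probe sets, 44 passed an adjusted p under 0.05 by limma, or 0.0977%, and in 13.5% the 3 KO values did not overlap the 3 WT values.

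Endocannabinoids are lipid messengers that cells make on demand from membrane phospholipids. NAPE-PLD, the product of Napepld, releases anandamide and related acylethanolamines, and the diacylglycerol lipases made by Dagla and Daglb produce 2-arachidonoylglycerol. Both messengers act on the G protein-coupled receptors CB1 (Cnr1) and CB2 (Cnr2), and are then hydrolysed, anandamide mainly by FAAH and 2-arachidonoylglycerol mainly by monoacylglycerol lipase (Mgll). CB1 is best known from nerve terminals and is also described in fat, liver and pancreatic islets, while CB2 is best known from immune cells.

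Cnr1 was the member on which the results turned, and 2 of its 3 start regions in the RefSeq table (GRCm38.p6, plus strand of chromosome 4) are shown because they differ most in base composition. Each is the 250 bases before an annotated start, and capitals mark CpG dinucleotides.
Cnr1 start region chr4:33924014-33924263: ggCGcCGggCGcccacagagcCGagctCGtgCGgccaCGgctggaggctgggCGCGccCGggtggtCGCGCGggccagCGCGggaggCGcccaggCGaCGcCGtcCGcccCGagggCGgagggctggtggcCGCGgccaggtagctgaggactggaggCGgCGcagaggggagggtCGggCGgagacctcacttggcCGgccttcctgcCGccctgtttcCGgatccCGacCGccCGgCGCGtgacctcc
Cnr1 start region chr4:33926130-33926379: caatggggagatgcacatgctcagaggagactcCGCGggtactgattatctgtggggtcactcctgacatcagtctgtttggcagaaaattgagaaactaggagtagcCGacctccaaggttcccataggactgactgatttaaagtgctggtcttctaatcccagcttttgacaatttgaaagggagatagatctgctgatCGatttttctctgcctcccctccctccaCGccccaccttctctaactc
The upstream region held 36 CpG and 79.2% G and C, and the downstream region 5 CpG and 49.2%, against medians of 6 CpG and 52.4% over all 32851 such regions in the table. The region between them, chr4:33924394-33924643, held 28 CpG and 68.8%. The array values carry no information on which start was used.

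Of the 7 genes, 6 had a start region in that table, 10 regions in all, and Dagla is named only. The regions were searched on both strands for 5 motifs: TGACTCA (AP-1), TGACGTCA (CRE), CCGGAAG (ETS core), CACGTG (E-box) and TATAAA (the TATA box). The E-box letters were found in the middle Cnr1 region and in 1 Mgll region, and occur in 6.02% of all regions. The ETS core letters were found in the Daglb region and occur in 6.91% of all regions. None of the other 3 motifs was found in any of the 10 regions, and the shares over all regions were 4.46% for AP-1, 1.55% for CRE and 12.4% for TATA. No motif contains another, and a match describes the letters only.

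At the receptor gene Cnr1, probe set 1434172_at was higher in every KO array than in any WT array. It measured 4.72, 5.24 and 4.42 in KO replicates 1, 2 and 3, while the WT values in the same order of replicates were 2.01, 2.76 and 3.10 (log2 intensity). The group means were 4.79 ± 0.42 and 2.63 ± 0.56 (SD, n = 3 each), a difference of 2.16. WT replicates 1 and 2 lay below their own array's median and WT replicate 3 just above it. KO replicates 1 and 2 lay above their array's upper quartile, and KO replicate 3 just below it. This is the value that led to the choice of the genes: its adjusted p in the limma fit was 0.0248, the 30th smallest p of the 45037, and nothing is read from it here.

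The other Cnr1 probe set, 1419425_at, gave a different picture. It is the brighter of the pair by the mean of the 6 arrays, though 1434172_at was the brighter in each KO array. Probe set 1419425_at measured 4.38, 4.53 and 4.10 in KO against 4.14, 4.06 and 4.46 in WT. The groups overlapped, with means of 4.34 ± 0.22 and 4.22 ± 0.21 (SD, n = 3 each) and a difference of 0.12. The 95% interval of that difference ran from -0.19 to 0.43, and the adjusted p was 0.859. Within each array, 1434172_at minus 1419425_at was 0.33, 0.70 and 0.32 in KO, and -2.13, -1.29 and -1.35 in WT. The gene was chosen with this gap known, so these values are a description, and they do not show which of the probe sets follows the receptor's mRNA.

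**Figure D1:**
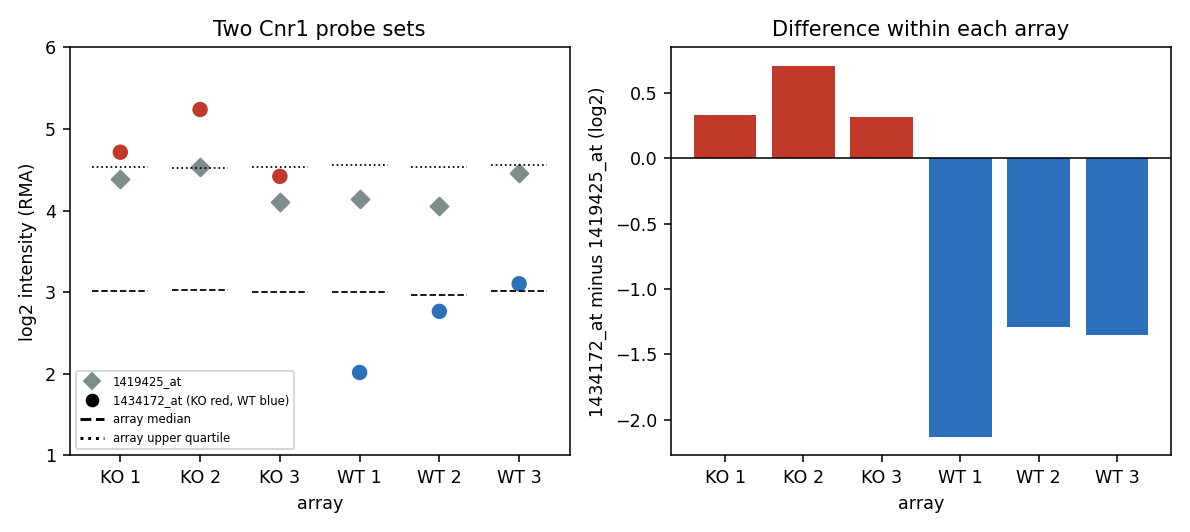
Left, log2 intensity of the 2 Cnr1 probe sets in each array (diamonds 1419425_at, circles 1434172_at, red for KO and blue for WT), with each array's median dashed and upper quartile dotted. Right, bars of 1434172_at minus 1419425_at within each array, which lie between 0.32 and 0.70 in KO and between -2.13 and -1.29 in WT.

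The call at 1434172_at depended on which array was left out. Dropped in turn, KO replicate 3 (limma adjusted p 0.0443), WT replicate 1 (0.0337) and WT replicate 3 (0.0217) each kept 1434172_at past the threshold. Its adjusted p by limma was 0.0861 without KO replicate 1, 0.118 without KO replicate 2 and 0.151 without WT replicate 2, with differences of 2.20, 1.94 and 2.23, and over all alternatives it ran from 0.0201 to 0.151. With the Xist level as a covariate the adjusted p by limma was 0.0886 and the difference 2.02. The added term leaves fewer residual degrees of freedom, which also bears on that p. When the 2 probe sets were averaged the gene differed by 1.14, with an adjusted p of 0.13. The direction was the same in all 15 alternatives. They reuse the arrays that the choice was made on, so nothing is read from that.

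A gap of this size between probe sets of a gene was rare in the table. Among the 9010 genes with more than 1 probe set, the median spread of the log2 difference over a gene's probe sets was 0.18, and 3 genes reached the 2.04 of Cnr1. These were Car3, Ankrd10 and Cnr1 itself, of which Car3 was singled out after its value was seen. The spread was 0.22 for Faah and 0.26 for Mgll. Since Cnr1 was chosen with this gap known, the rank is a description.

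Marker genes of the cell types that could carry Cnr1 were set beside it, as mean log2 levels per array. In whole tissue, fewer cells of a type and less RNA per cell cannot be told apart. The nerve and glia markers, 9 of 11 measured, lay between 3.11 and 3.23 in KO and between 3.06 and 3.18 in WT, and 4 of the 9 were above the median in every array. These were the neuronal genes Syp (3.28 to 3.48), Prph (4.17 to 4.59) and Th (3.15 to 3.71) and the glial Sox10. Sox10 measured 4.78, 4.93 and 4.80 in KO and 4.63, 4.49 and 4.71 in WT, without overlap, as in 13.5% of all probe sets. Its difference of 0.22 did not pass (unadjusted p 0.0406, adjusted p 0.553 by limma). Snap25, Nefl and Nefm were under the median throughout, at most 2.25, 2.38 and 2.37. They differed the other way, by -0.10, -0.09 and -0.07. Of the 9 nerve and glia markers, 6 were higher and 3 lower in KO (exact permutation p of 0.5). The islet markers, 9 of 9 measured, lay between 7.42 and 7.55 in KO and between 7.53 and 7.62 in WT (exact permutation p of 0.2). The fat markers, 7 of 10 measured, lay between 3.82 and 4.66 in KO and between 4.36 and 4.95 in WT. KO replicate 1 was the lowest array, with the adipokine Adipoq at 2.26 and the fat marker Fabp4 at 9.03. Of the 7 fat markers, 3 were higher and 4 lower in KO.

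Of the 8 marker lists, acinar and stellate levels did not overlap between genotypes. Acinar markers were 12.48 to 12.56 in KO and 12.57 to 12.73 in WT, and stellate and fibroblast markers 7.10 to 7.39 and 7.40 to 7.65, each with an exact two-sided permutation p of 0.1, the smallest that 3 against 3 arrays allow. Single genes weighed heavily in both. Ptf1a differed by -0.56, and Cpa1, Ctrb1, Cel, Cela2a and Rbpjl by -0.08 to -0.02. The collagens Col1a1, Col1a2 and Col3a1 differed by -0.61, -0.43 and -0.50. Pdgfra, Pdgfrb, Dcn and Des differed by -0.05, -0.02, -0.19 and -0.08. Duct markers lay between 4.22 and 4.52 in KO and between 4.17 and 4.29 in WT, and endothelial markers between 4.01 and 4.26 and between 4.19 and 4.30. Adjusted over the 8 lists, the lowest p was 0.4. The part of these lists in the Cnr1 values was not tested.

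Cnr2, the receptor of immune cells, was at the bottom of the scale. Its probe set measured 2.24, 2.18 and 2.23 in KO and 2.23, 2.37 and 2.12 in WT, all 6 values below the median of their array. The groups overlapped and differed by -0.02, with a 95% interval from -0.23 to 0.19. The immune markers, 11 of 12 measured, averaged 3.59 to 4.02 in KO and 3.85 to 3.94 in WT, and 4 of the 11 were above the median in every array, among them the macrophage genes Csf1r and Lyz2. With all values at this level, a fall or a small rise of Cnr2 would be hard to see.

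Among the synthesis enzymes, Dagla was the one measured clearly above its arrays' upper quartiles in all 6 arrays. It measured 6.47, 6.83 and 6.52 in KO and 6.53, 6.44 and 7.37 in WT. The groups overlapped, and WT replicate 3 stood above the other 5 arrays. The difference was -0.18, with a 95% interval from -0.67 to 0.32 and an adjusted p of 0.872 by limma, and it was 0.12 without WT replicate 3. Daglb, the second diacylglycerol lipase, lay below the median in all arrays, between 2.11 and 2.58 in KO and between 2.25 and 2.53 in WT, with a difference of -0.06 (95% interval -0.35 to 0.23).

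Napepld measured 2.84, 2.82 and 2.66 in KO and 2.56, 2.26 and 2.41 in WT. The 3 KO values were above the 3 WT values, but all 6 were below the median of their array. The difference was 0.37 (95% interval 0.13 to 0.60), with an unadjusted p of 0.00594 and an adjusted p of 0.361 by limma. It did not pass.

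**Figure D2:**
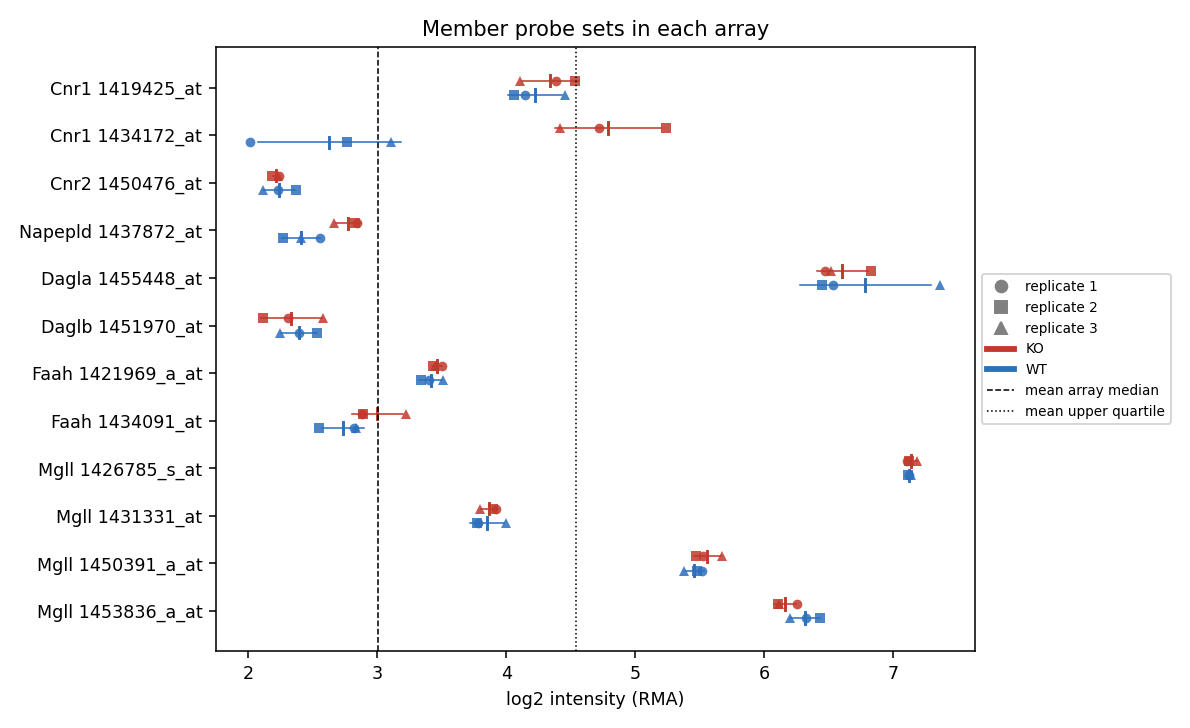
Log2 intensity of the 12 probe sets in each array (red KO, blue WT, one symbol per replicate), with the group mean as a tick and ± 1 SD as a line (n = 3), and the mean array median (dashed) and upper quartile (dotted). The groups are apart at Cnr1 1434172_at, 4.42 to 5.24 against 2.01 to 3.10, and close at the Mgll probe sets.

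Of the breakdown enzymes, Mgll was read by 4 probe sets, and none separated the genotypes. Probe set 1426785_s_at was the steadiest, at 7.11, 7.13 and 7.19 in KO and 7.12, 7.11 and 7.14 in WT, a range of 0.08 over the 6 arrays. Its difference of 0.02 had a 95% interval from -0.17 to 0.20.

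The other Mgll probe sets differed by small amounts in both directions. Probe set 1453836_a_at measured 6.26, 6.10 and 6.12 in KO and 6.32, 6.43 and 6.20 in WT, a difference of -0.16 (95% interval -0.38 to 0.06). Probe set 1450391_a_at lay between 5.47 and 5.67 in KO and between 5.38 and 5.52 in WT, a difference of 0.10 (-0.11 to 0.31), and 1431331_at between 3.79 and 3.92 and between 3.77 and 4.0, a difference of 0.02 (-0.20 to 0.24). Over the 6 arrays the 4 probe sets correlated with each other at -0.61 to 0.64, a description of values that hardly vary. The s and a suffixes mark probe sets that can bind more than 1 transcript.

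Faah, the anandamide hydrolase, was read by 2 probe sets. Probe set 1421969_a_at was above the median of every array and measured 3.50, 3.43 and 3.44 in KO and 3.40, 3.33 and 3.51 in WT, overlapping, with a difference of 0.05 (95% interval -0.15 to 0.24). Probe set 1434091_at measured 2.88, 2.89 and 3.23 in KO and 2.82, 2.55 and 2.83 in WT. There the KO values were all above the WT values, though only from 2.83 to 2.88 at the nearest, and 5 of the 6 were below the median of their array. The difference was 0.26 (-0.02 to 0.55), with an adjusted p of 0.604 by limma.

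Taking the 12 probe sets as a list, 8 were higher and 4 lower in KO, with a median difference of 0.03 against 0.01 over all tested probe sets. By limma 1 passed, the Cnr1 probe set that the choice was made on, against the 0.0977% of all probe sets given above, and 2 had an unadjusted p under 0.05 against 8.68% of all. In 3 of the 12 the groups did not overlap, at Cnr1 1434172_at, Napepld and Faah 1434091_at, all with KO above WT, against 13.5% of all probe sets. With KO above WT as the direction, 0.0733% of all probe sets passed and 6.97% did not overlap. Nothing is read from these counts, since the Cnr1 value was part of the choice. By the brightest probe set of each gene, 0 of the 7 genes passed limma, against 0.132% of all 18193 genes. Of the 7, 1, Napepld, had an unadjusted p under 0.05 by limma, against 10.1% of all genes. Napepld was also the 1 gene of the 7 whose groups did not overlap, against 14.4% of all genes. These counts by gene are a description too.

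**Figure D3:**
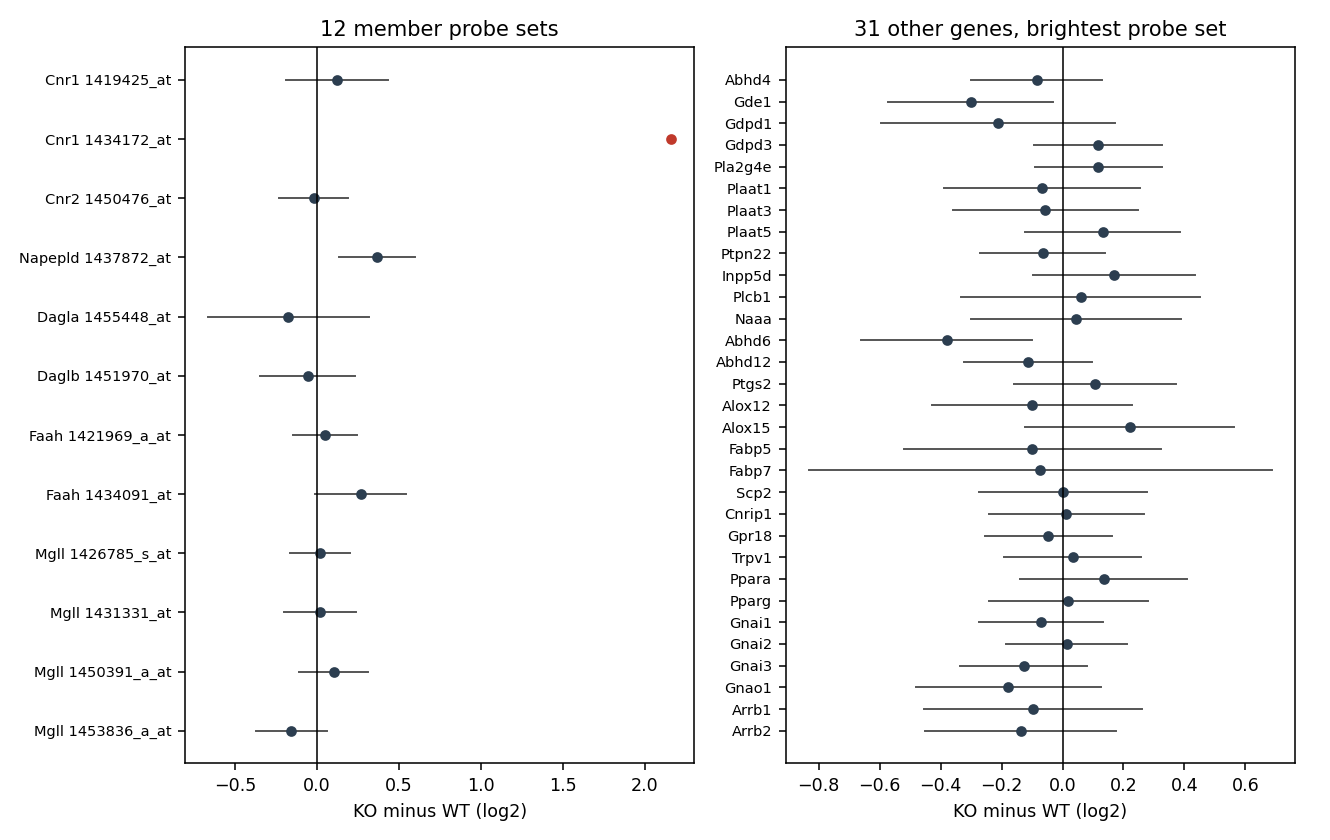
Differences KO minus WT (log2) for the 12 member probe sets (left) and for 31 other endocannabinoid genes at their brightest probe set (right); lines are 95% intervals from limma, left off for Cnr1 1434172_at, which was chosen on this value and is drawn in red. That probe set lies at 2.16, and the other 11 lie between -0.18 and 0.37.

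Other genes of the pathway were taken from a list of 33, of which 31 had a single-gene probe set, while the receptors Gpr55 and Gpr119 were not analysed here. By limma, 0 of the 31 passed at their brightest probe set, against 0.132% of all 18193 genes, and 2 had an unadjusted p under 0.05, both lower, against 10.1%. Among them 14 were higher and 17 lower in KO, with a median difference of -0.06 against -0.00056 over all genes. Over all 60 of their probe sets, 0 passed too.

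The 2 genes were enzymes of side routes. Abhd6, a serine hydrolase that breaks down part of the 2-arachidonoylglycerol, measured 5.18, 4.93 and 5.31 in KO and 5.71, 5.39 and 5.46 in WT. Its groups did not overlap, and the difference was -0.38 (95% interval -0.66 to -0.10, adjusted p 0.426). Its other probe set, 1419104_at, overlapped between the groups and differed the other way, by 0.13 (-0.14 to 0.41, adjusted p 0.814 by limma). Gde1, a phosphodiesterase on another path to anandamide, measured 6.27, 6.15 and 6.57 in KO and 6.53, 6.62 and 6.74 in WT. Its groups overlapped, with a difference of -0.30 (-0.57 to -0.03, adjusted p 0.528).

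The remaining enzymes and carriers did not pass either. Abhd12, another 2-arachidonoylglycerol hydrolase, differed by -0.11 at its brightest probe set (95% interval -0.32 to 0.10). At its other probe set, 1453367_a_at, the KO values of 4.03, 4.21 and 4.28 were below the WT values of 4.40, 4.40 and 4.49, a difference of -0.26 (-0.47 to -0.04, unadjusted p 0.0241, adjusted p 0.494 by limma). Naaa, a lysosomal acylethanolamine hydrolase, differed by 0.04 (-0.30 to 0.39). The other routes of synthesis, 11 genes, had 5 higher and 6 lower, with differences from -0.30 to 0.17. Alox15, a lipoxygenase, differed by 0.22 and was below the array median in all 6 arrays. Next after Abhd6 and Gde1 by unadjusted p were Alox15 and Inpp5d, a lipid phosphatase at 0.17, with adjusted p of 0.733 and 0.74. Cnrip1, a protein that binds the tail of CB1, measured 4.09 to 4.41 in KO and 4.12 to 4.38 in WT, a difference of 0.01 (-0.24 to 0.27).

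Of the 4 other receptors measured, Gpr18 and Trpv1 were below the median in every array, and Ppara and Pparg above it. The ion channel Trpv1, which anandamide opens, lay between 2.30 and 2.59 in KO and between 2.33 and 2.46 in WT, and differed by 0.03 (95% interval -0.19 to 0.26). The nuclear receptor Pparg lay between 3.08 and 3.42 and between 3.19 and 3.42, a difference of 0.02 (-0.24 to 0.28). The G protein subunits and arrestins that couple CB1 and CB2, 6 genes, had 1 higher and 5 lower, with differences from -0.18 to 0.01 and a lowest adjusted p of 0.75 by limma.

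Of the 12 member probe sets, only Cnr1 1434172_at varied by more than 1 log2 unit over the 6 arrays, with a range of 3.22, and the probe sets nearest to its pattern were sought. Nearness was the root mean square distance over the 6 arrays between log2 values centred on each probe set's mean, among 34943 probe sets of other genes. The nearest was Ankrd10 1448199_at at a distance of 0.36, followed by Ankrd10 1416065_a_at at 0.42, Abcc3 at 0.45, Serpina10 at 0.46 and Dipk1a at 0.50. Ankrd10 codes for an ankyrin repeat protein, Abcc3 for an efflux transporter of organic anions and Serpina10 for an inhibitor of coagulation proteases. Their correlations with Cnr1 1434172_at over the 6 arrays were 0.92 to 0.98, and the genotype difference is part of each.

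Cnr1 1434172_at was highest in KO replicate 2 and lowest in WT replicate 1, and Abcc3 was too, at 5.28 and 3.32. Ankrd10 1448199_at was highest in KO replicate 1, at 7.32. Ankrd10 1448199_at, Ankrd10 1416065_a_at and Dipk1a were lowest of the KO arrays in replicate 3, at 6.63, 7.07 and 4.79, as Cnr1 1434172_at was. Serpina10 was lowest of the KO arrays in replicate 1, at 7.76, and of the WT arrays in replicate 2, at 5.71. Ankrd10 1416065_a_at was lowest in WT replicate 3, at 5.05. All were picked for nearness over these same arrays, so a shared order was built in and nothing is read from it.

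**Figure D4:**
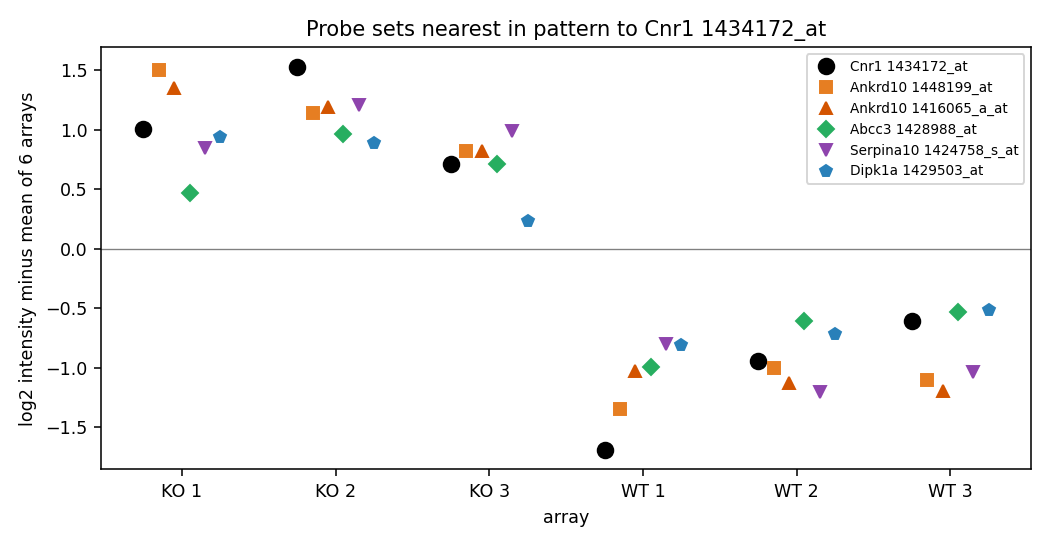
Log2 intensity minus the mean of the 6 arrays for Cnr1 1434172_at (black) and the 5 nearest probe sets of other genes, by array. All 6 probe sets are above their mean in the KO arrays and below it in the WT arrays.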

How the data were processed

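Per the submitters' processing notes, RMA of the affy package gave the deposited log2 values, 1 per probe set and array; no version or setting was found. RMA brings the distributions of the arrays close to each other, here with medians of 2.97 to 3.02, which hides a shift common to most transcripts. The table held 45101 probe sets, of which 64 controls were left out. Genes were named from 34958 probe sets with 1 symbol (932 had several, 9211 none), updated by Entrez identifier through RefSeq (GRCm38.p6).

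KO minus WT was fitted per probe set with limma 3.58.1 in R 4.3.3, two-sided, without covariates, with Benjamini-Hochberg adjustment over 45037 probe sets and a threshold of 0.05. The 95% intervals use 9.53 degrees of freedom. Marker lists used exact permutation tests, and the fit was tested on simulated data. Figures used matplotlib 3.10.9. The members, lists, named genes and motifs were chosen with earlier results of these data known. All members were named, and of the other genes the 4 of smallest p and a set named whatever their result. Groups came from the sample titles, and the labels call the arrays of a group biological replicates.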

Additional observations from a re-analysis of the deposited data

How the results depend on the processing

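The number of probe sets past the threshold over the whole table was 44, and 16 to 41 with 1 array left out, 22 with the Xist covariate, 25 without probe sets of x, s or a suffix, 24 with the brightest probe set per gene and 76 at an adjusted p under 0.1. Of the members 1 passed, and 0 with the Xist covariate or the brightest probe set per gene, and 0 to 1 with 1 array left out (0 when KO replicate 1 or 2 or WT replicate 2 was left out). Non-overlapping member probe sets numbered 3 of 12, against 13.5% of all probe sets. They numbered 5 after a second quantile normalization, where Mgll 1426785_s_at and 1450391_a_at joined with KO above WT. With 1 array left out they numbered 3 to 6. Groups with fewer arrays separate more easily, so these last counts are not comparable with the first. The share over all probe sets was not taken in these alternatives, and nothing is read from the counts. No other endocannabinoid gene passed limma in any of the 16 alternatives run on that count, where 2 of 31 had an unadjusted p under 0.05 in the first fit. Some alternatives left out probe sets, either those of x, s or a suffix or those with a mean level under the median. A gene whose brightest probe set was left out could not pass there. Without the suffixes, Abhd6 and Gde1, the 2 genes with that unadjusted p, were among these.

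Of 168 values of member differences under the alternatives, 148 kept direction and side of the threshold, 5 lost the Cnr1 call and 15 changed sign, all at probe sets that had not passed. Cnr2 was 0.022 with the Xist covariate. With an array left out Cnr2 ran from -0.081 to 0.044, Dagla from -0.34 to 0.12, Daglb from -0.18 to 0.052, Mgll 1426785_s_at from -0.0074 to 0.031 and Mgll 1431331_at from -0.022 to 0.092. With equal array medians these 2 Mgll probe sets were at -0.0055 and -0.0034, 1431331_at was at -0.0097 with the Xist covariate, and the mean of the 4 Mgll probe sets was -0.0066.

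The replicate numbers are not said to pair mice, and deviations of same-numbered arrays correlated at -0.08 to 0.19 over 3 pairs, with 1 of 3 KO arrays closest to its own number. With the replicate number as a block, 33 probe sets passed, against 44, and Cnr1 1434172_at had an adjusted p of 0.0201. Probe sets under the array medians limit what can be seen for Cnr2, Daglb, Napepld and Faah 1434091_at.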
